A study of Mus musculus with 6 samples.

Results

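Sorcs2, Tmem65, Snx27, Bhlhb9, Oip5os1 and Fam8a1 are 6 of the 55416 genes in a count table from primary mouse chondrocytes in which Pkm was silenced by siRNA. They were picked by name for their steady loss in siPkm2 beyond Pkm itself, that is, for their counts and TPM in siPkm2 against siNC in each replicate pair. Their fall is therefore given as a description, with no test. The cells came from the knee joints of mice that the labels call neonatal, whereas the supplementary methods of the paper, which took the sequencing from earlier work, describe adult mice. The control cultures (siNC, n = 3 libraries) received a scrambled siRNA and are labelled WT, and the silenced cultures (siPkm2, n = 3 libraries) received an siRNA against Pkm2. The genotype label is PKM2 knockdown in replicate 1 of siPkm2 and carries other PKM numbers in replicates 2 and 3, but all 3 titles read siPKM2. All 6 cultures were grown in DMEM/F12 with serum, and siPkm2 is a single targeting group, with no other siRNA against Pkm sequenced beside it.

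The 6 transcripts have different known roles. SorCS2 is a sorting receptor of the VPS10 family, which carries membrane proteins between the Golgi, endosomes and the cell surface and binds neurotrophin precursors. SNX27 is a sorting nexin that works with retromer to return cargo from endosomes to the surface. TMEM65 is a protein of the inner mitochondrial membrane linked to calcium efflux from mitochondria. FAM8A1 is a membrane protein of the HRD1 ubiquitin ligase complex, which removes misfolded proteins from the endoplasmic reticulum. BHLHB9, also called GPRASP3, belongs to a family of armadillo-repeat proteins encoded mostly on the X chromosome. Oip5os1, also called Cyrano, is a long non-coding RNA known for directing the decay of the microRNA miR-7. An siRNA cuts the transcript that its antisense strand pairs with along its length, and the seed of that strand, its bases from position 2 to position 8, can also lower other transcripts through short matches, mostly in 3′ untranslated regions (3′ UTRs).

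The siRNA strands are shown because their seeds were searched for in the 6 transcripts. They were read from the study's list of siRNAs, which does not say which siPkm2 was sequenced, and siPkm2 #3 was the one chosen for the reporting paper's own experiments. Whether siPkm2 #3 was used in these cultures is not known. Capitals mark the seed, positions 2 to 8 from the 5′ end.
siPkm2 #3 antisense: uGUUUCUCcagacagcaugtt
siPkm2 #3 sense: cAUGCUGUcuggagaaacatt
siPkm2 #1 antisense: aUGGUACAaaugaugccagtt
siPkm2 #2 antisense: aCAUUCUUgauggucucugtt
siNC antisense: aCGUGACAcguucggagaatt
The antisense strand of siPkm2 #3 pairs with all 19 bases of its target in coding exon 8 of Pkm (chr9:59672010-59672028, plus strand, GRCm38). That target is in Pkm-201 and Pkm-202, and those of siPkm2 #1 and #2 are in exons 2 and 4 of both. The paper names a later exon as the one specific to the PKM2 isoform, and none of these targets lies in it. The target of siPkm2 #3 is printed with the bases opposite the seed in capitals.
Pkm target of siPkm2 #3: catgctgtctgGAGAAACa

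The 7 bases GAGAAAC, which pair with the seed of the siPkm2 #3 antisense strand, occur in the longest-3′ UTR transcript of 4 of the 5 coding members and in Oip5os1. Each of these matches is printed with the bases around it, the match in capitals, and matches to the other strands are given further below.
Tmem65, 3′ UTR: acatgtggaagaGAGAAACtgaagtta
Tmem65, coding region: agtgaagaggatGAGAAACtggaaaca
Snx27, 3′ UTR: taatttatttgaGAGAAACtaattgta
Bhlhb9, 3′ UTR: cagagagcaaaaGAGAAACtactgctc
Fam8a1, 3′ UTR: taggattttcctGAGAAACactaaatc
Oip5os1, non-coding exon: tgttagatgagaGAGAAACagatgctg
In Fam8a1 and Oip5os1 the match is followed by an A, which makes it the 8-base site GAGAAACA. The matches lie at chr15:58783531-58783537 and chr15:58784926-58784932 for Tmem65 (minus strand, both in exon 7) and at chr3:94497743-94497749 for Snx27 (minus strand, exon 12). Those of Bhlhb9 (plus strand, exon 5), Fam8a1 (plus strand, exon 5) and Oip5os1 (plus strand, exon 3) lie at chrX:135891008-135891014, chr13:46676875-46676881 and chr2:119601229-119601235. Sorcs2 holds no 7-base match in its main transcript, Sorcs2-201, but a 6-base match near the end of the 3′ UTR (chr5:36017216-36017221, minus strand). The shorter Sorcs2-202 has a 7-base match in its 3′ UTR (chr5:36150254-36150260, minus strand). The 6 bases AGAAAC are common, in the 3′ UTR of 46.2% of tested genes and of 63.8% in the fifth of 3′ UTR length of Sorcs2. The 3′ UTR of Sorcs2-201 also holds 6-base matches to other strands, among them siNC sense and siPkm2 #1 and #2 antisense.
Sorcs2-201, 6-base match: tatataaaaaaaAGAAACaataaatc
Sorcs2-202, 7-base match: gggctgcctagcGAGAAACtgctttta

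Depth was even, between 22316996 and 25691029 counts per library. Values of 3 libraries are given in the order of replicates 1, 2 and 3. Pkm itself, the targeted gene, had 1654, 2209 and 1293 TPM in siNC and 245, 428 and 231 TPM in siPkm2. These gene-level values do not separate its isoforms. TPM, as deposited, are counts corrected for transcript length and scaled to a common total. The groups of Pkm were far apart, at a log2 fold change of -2.51 with a standard error of 0.33. The Benjamini-Hochberg adjusted p was 0.0738 in edgeR's quasi-likelihood test and 0.00932 once the replicate number entered as a block. Cartilage markers were present in all libraries: the 8 of them (Col2a1, Acan, Sox9, Comp, Col9a1, Col11a1, Hapln1 and Matn3) summed to between 14000 and 17280 TPM in replicates 1 and 3 of both groups. Replicate 2 stood apart in both groups, with sums of 3955 TPM in siNC and 5299 TPM in siPkm2. The 6 macrophage markers summed to 99.1 and 58.7 TPM in replicate 2 of siNC and siPkm2 and to between 9.18 and 20.7 TPM elsewhere. Most of the replicate 2 sums came from Cd68 alone, at 92.8 and 53.4 TPM. Ptprc, Adgre1 and Itgam lay at or near 0 throughout, and Csf1r and Lyz2 reached at most 1.27 and 5.44 TPM in any library. Fibroblast markers summed to between 1550 and 4763 TPM, the 4 endothelial markers to at most 0.79 TPM and the 4 muscle markers to at most 7.35 TPM. With the block, Des among the muscle markers and Matn3, 1 of the 8 cartilage markers, were higher in siPkm2 at an adjusted p under 0.05 by edgeR, and no other marker tested passed. The part of replicate 2 or of other cells in the results below was not tested beyond the values without replicate 2. No label says that the libraries of a group came from separate cultures or animals, so p-values measure the spread between these libraries.

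Sorcs2 (ENSMUSG00000029093, chromosome 5 from 36017180 to 36398139) lost the largest share of its transcripts among the 6. It was at 6.09, 7.65 and 7.51 TPM in siNC and at 1.56, 1.80 and 1.57 TPM in siPkm2. The means of 7.08 ± 0.863 and 1.64 ± 0.136 TPM (SD, n = 3 each) leave 23.2% of the control level. The lowest control library lay well above the highest silenced one, and the log2 fold change was -2.06 (standard error 0.17). Its deposited counts, 560, 611 and 567 in siNC and 123, 162 and 114 in siPkm2, were the smallest of the 6, and the precision of its level in siPkm2 is the most limited by counting. In bulk RNA, fewer cells that express a gene and less RNA per cell cannot be told apart, for this and every other gene here.

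Snx27 (ENSMUSG00000028136, chromosome 3 from 94497544 to 94582716), the other endosomal sorting gene, was at 18.7, 23.4 and 18.9 TPM in siNC and at 8.88, 9.80 and 9.78 TPM in siPkm2. The groups did not overlap, and the means of 20.3 ± 2.63 and 9.49 ± 0.526 TPM (SD, n = 3 each) leave 46.7%. The log2 fold change was -1.08 (standard error 0.12). The smallest drop was in pair 3, where 52.2% of the library-scaled level (CPM) was left against 45.1% and 45.0% in pairs 1 and 2.

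Tmem65 (ENSMUSG00000062373, chromosome 15 from 58782269 to 58823638) had the most even levels of the 6 in TPM, though not in CPM, where Fam8a1 varied less in both groups. It was at 26.3, 26.9 and 26.5 TPM in siNC and at 9.09, 8.67 and 8.37 TPM in siPkm2. The means were 26.6 ± 0.294 and 8.71 ± 0.362 TPM (SD, n = 3 each), which leaves 32.8%, at a log2 fold change of -1.57 (standard error 0.13). Within the pairs 34.2%, 33.8% and 33.3% of the CPM was left, the narrowest range of the 6 transcripts, although replicate 2 differed from the other replicates in its cartilage markers.

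Fam8a1 (ENSMUSG00000069237, chromosome 13 from 46669522 to 46678056) had the smallest loss of the 6. It was at 33.3, 37.1 and 33.8 TPM in siNC and at 19.4, 18.98 and 16.6 TPM in siPkm2. The groups did not overlap, with means of 34.7 ± 2.08 and 18.3 ± 1.48 TPM (SD, n = 3 each) and 52.8% left. Its log2 fold change of -0.94 (standard error 0.11) lies just under the 2-fold threshold of the study's methods, which the other 5 passed. With upper-quartile scaling, which moved the median of all genes by -0.07, it was -1.01.

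Bhlhb9 (ENSMUSG00000072964, chromosome X from 135797594 to 135891081) was at 24.6, 26.8 and 22.8 TPM in siNC and at 10.5, 10.9 and 11.5 TPM in siPkm2. The groups were clearly separate, with means of 24.7 ± 2.01 and 10.9 ± 0.517 TPM (SD, n = 3 each), 44.3% left and a log2 fold change of -1.20 (standard error 0.14). Its counts were fractional in every library. The annotated exons of Bhlhb9 share 376 bases with those of Gprasp2 and 36 with those of Gprasp1, on the same strand, so some reads could have been divided between these genes.

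Oip5os1 (ENSMUSG00000085438, chromosome 2 from 119594297 to 119607502) was at 31.0, 28.5 and 39.2 TPM in siNC and at 12.2, 12.3 and 15.7 TPM in siPkm2. Replicate 3 was the highest in both groups, and the groups did not overlap. The means of 32.9 ± 5.55 and 13.4 ± 1.96 TPM (SD, n = 3 each) leave 40.7%, and the log2 fold change was -1.29 (standard error 0.15). Its control libraries had the widest relative spread of the 6 transcripts in CPM, a coefficient of variation of 13.8%, against a median of 22.8% over all genes tested.

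**Figure D1:**
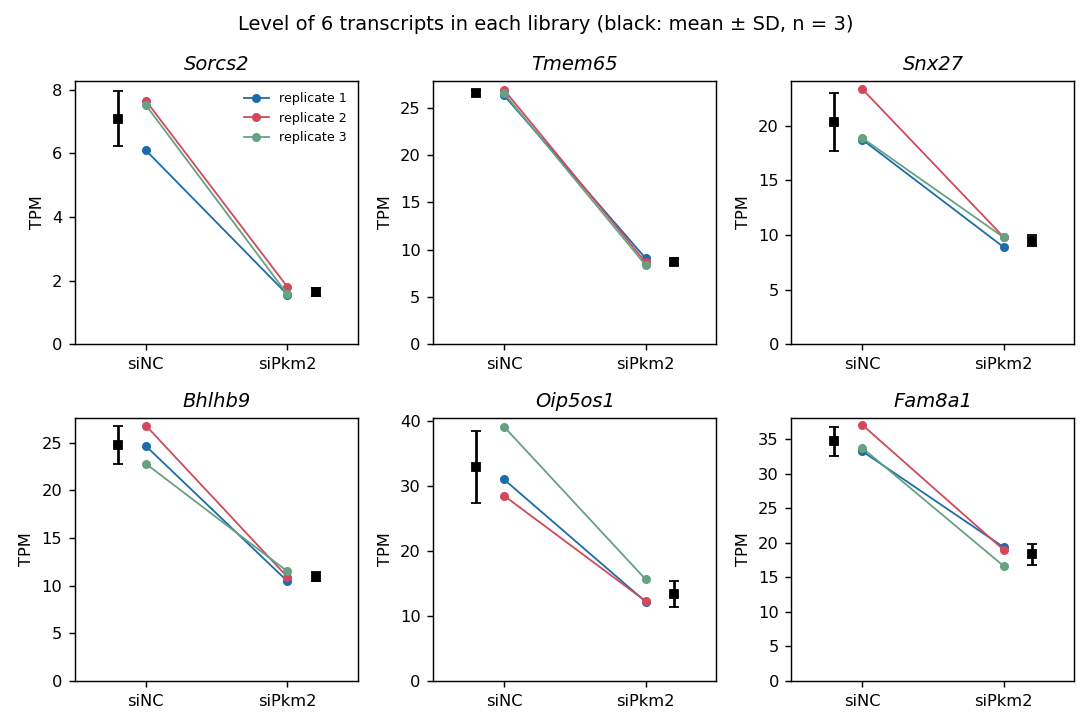
Level of each transcript in TPM (vertical axis, from 0) in siNC and siPkm2, with lines joining libraries of the same replicate number and black squares for the mean ± SD (n = 3). In all 6 panels the siPkm2 points lie below the siNC points, and in Tmem65 the 3 lines nearly coincide.

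All 18 within-pair differences were losses, from -0.89 (Fam8a1, pair 3) to -2.15 (Sorcs2, pair 3) on the log2 scale of CPM (counts scaled to the library total) with 0.5 added. Of all genes tested, 30.6% were lower in each pair. The groups of all 6 transcripts did not overlap, which also held for 12.3% of the 15269 genes tested. Since the members were picked on this contrast, nothing is read from these shares. Without replicate 2 of both groups the log2 fold changes ran from -2.12 for Sorcs2 to -0.93 for Fam8a1. The range over the 3 pairs ran from 0.04 for Tmem65 to 0.27 for Sorcs2, and its median over all genes tested was 0.41. By the smallest fall over the pairs, Sorcs2 ranked 8 and Tmem65 ranked 16 of the 15269 genes, with Pkm at 3. Oip5os1 ranked 76, Bhlhb9 79, Snx27 162 and Fam8a1 183, so many other genes lost as much. The 5 genes just after Fam8a1 (-0.89) were Hmmr, Kctd12, Sertad4, Aurka and Chst14, whose smallest falls lay between -0.89 and -0.88.

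**Figure D2:**
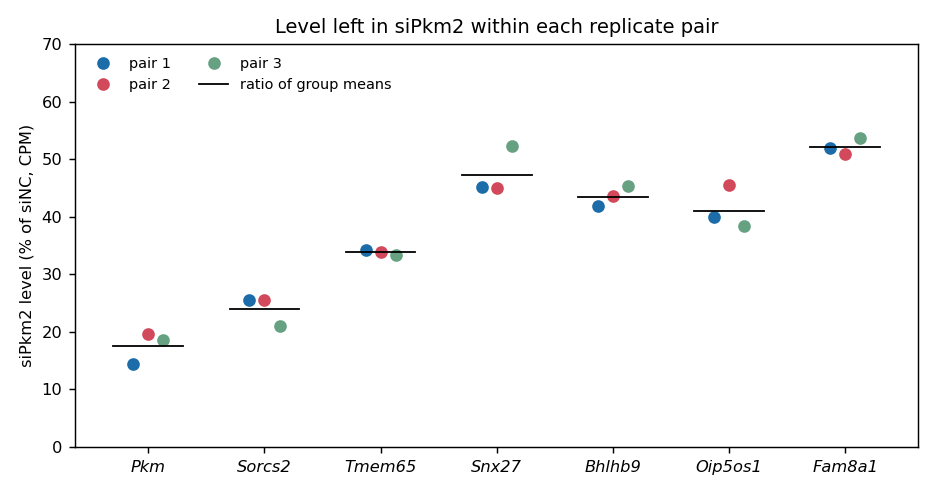
Level left in siPkm2 as a percentage of siNC in CPM (vertical axis) within each replicate pair (coloured points), with the ratio of the group means as a line. Pkm kept 14.4% to 19.7%, Sorcs2 at most 25.6% in any pair and Fam8a1 up to 53.6% (pair 3).

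On the TPM scale, which allows levels of different genes to be compared, Fam8a1 was the highest of the 6 in siNC, followed by Oip5os1, Tmem65, Bhlhb9, Snx27 and Sorcs2. The ranges of Fam8a1 and Oip5os1 overlapped, as did those of Tmem65 and Bhlhb9 and those of Bhlhb9 and Snx27. Sorcs2 lay below all of these and stood at the 35.8 percentile of the genes tested, while the others lay between the 59.9 and 73.5 percentiles. In siPkm2 the order was Fam8a1, Oip5os1, Bhlhb9, Snx27, Tmem65 and Sorcs2, and only Snx27 and Tmem65 had overlapping ranges among neighbours. By its mean, Tmem65 stood above Bhlhb9 and Snx27 in siNC and below them in siPkm2.

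The lengths behind the TPM values did not separate the groups in any of the 6. The ratio of count to TPM, scaled by 505 genes with a single annotated transcript, gives the mean length of the transcripts counted for a gene. It was 3754 ± 2 bases in siNC and 3755 ± 3 bases in siPkm2 for Tmem65 (SD, n = 3 each), next to 3747 annotated bases. For Snx27 it was 5691 ± 108 and 5569 ± 137 bases, nearer to Snx27-201 (6261 bases, with the GAGAAAC match in its 3′ UTR) than to Snx27-202 (3531 bases, without it). For Sorcs2 it was 5650 ± 44 and 5639 ± 272 bases, near Sorcs2-201 (5707 bases), while Sorcs2-202, which holds the 7-base match, has 2089 bases. Bhlhb9, Oip5os1 and Fam8a1 were at 2743 ± 31, 7476 ± 548 and 3620 ± 60 bases in siNC and at 2624 ± 239, 7321 ± 728 and 3476 ± 196 bases in siPkm2.

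The seed of siPkm2 #3 was matched by more of the members' 3′ UTRs than any other siRNA strand searched. The 7-base match was in the 3′ UTR of Tmem65, Snx27, Bhlhb9 and Fam8a1, 4 of the 5 coding members, against 17.9% of the 13273 tested genes with an annotated 3′ UTR. The siPkm2 #1 antisense seed (TGTACCA) matched 1 of the 5 (Fam8a1, background 11.7%), the siPkm2 #2 antisense seed (AAGAATG) none (17.4%) and the siNC antisense seed (TGTCACG) none (3.5%). Of the sense strands, siPkm2 #1, #2 and #3 matched 1, 2 and 2 of the 5 (background 12.7%, 14.4% and 14.2%), and siNC none (2.8%). A longer 3′ UTR holds more matches of any word, and the 3′ UTRs of Snx27 (4513 bases), Tmem65 (2640 bases), Fam8a1 (2400 bases) and Sorcs2 (2148 bases) are longer than most. When tested genes were divided into 5 groups by 3′ UTR length, GAGAAAC was in 40.5% of genes of the longest group, to which Snx27 belongs, and in 23.4% of the next, to which Tmem65, Fam8a1 and Sorcs2 belong. Bhlhb9, whose 3′ UTR has 421 bases, is in the shortest group, where 3.3% of genes hold the match. Over all annotated transcripts of a gene, 5 of the 5 coding members held it in a 3′ UTR, against 20.3% of tested genes. The shares were 4.1% in the shortest group, 27.2% in that of Tmem65, Fam8a1 and Sorcs2, and 43.6% in the longest. Sorcs2 was counted only through the shorter transcript printed above. Its mean transcript length was near that of Sorcs2-201, which lacks the match. Every other strand matched at most 2 of the 5 in this way, among them siPkm2 #1 antisense (Snx27 and Fam8a1, background 13.3%). The 8-base site GAGAAACA was in 1 of the 5 (Fam8a1) against 6.2%. That of siPkm2 #1 antisense was also in Fam8a1 alone, against 2.8%. Outside 3′ UTRs, Oip5os1 also held 1 match each to the sense seeds of siPkm2 #1, #2 and #3. In coding sequence the siPkm2 #1 antisense seed matched Sorcs2-201 and Snx27-201, and the siPkm2 #2 antisense seed matched Bhlhb9-201. No background share was taken outside 3′ UTRs, so matches there cannot be set against other genes. Only the letters were searched, on the transcript strand, and a match does not show that the siRNA acted there.

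**Figure D3:**
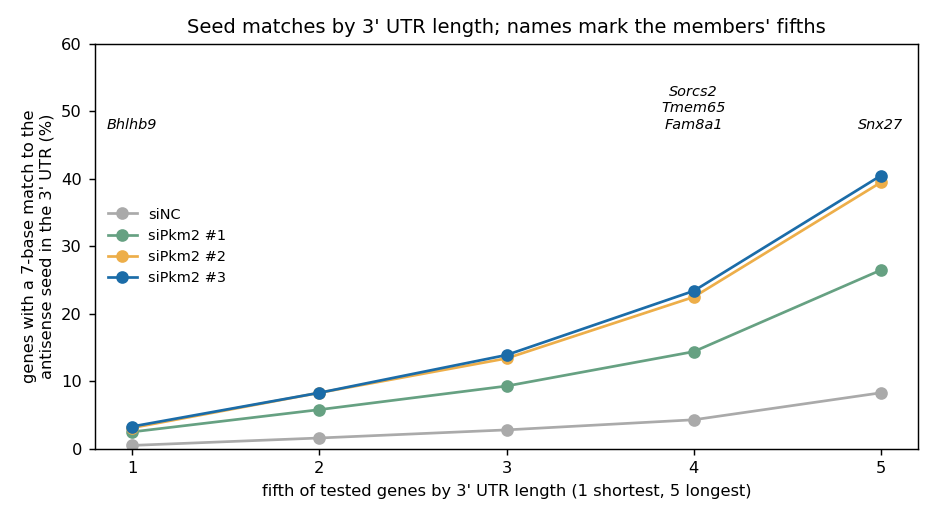
Share of tested genes with a 7-base match to the antisense seed of each siRNA in the 3′ UTR (vertical axis, percent), in 5 groups of genes from the shortest to the longest 3′ UTR (horizontal axis). The siPkm2 #3 line rises from 3.3% to 40.5%, close to the siPkm2 #2 line, and gene names mark the length groups of the coding members.

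Unbroken pairing was short when sought at any part of a strand, not only at the seed. For the siPkm2 #3 antisense strand and any annotated transcript, it was 9 bases for Tmem65 and Bhlhb9 and 8 bases for the other 4. It was 19 bases for Pkm. The stretches span strand positions 5 to 13 for Tmem65 and 8 to 16 for Bhlhb9, away from the GAGAAAC matches printed above. The siNC sense strand also reached 8 bases with Sorcs2 and Tmem65. At the best ungapped position, between 5 (Tmem65) and 7 of the 19 bases did not pair. The longest pairing of any strand with a member was 11 bases, between the siPkm2 #1 antisense strand and Sorcs2.

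Genes of the processes that the members belong to were tested in the same contrast, on 7 lists that hold none of the members. Of 81 genes, 78 had enough counts. In edgeR's quasi-likelihood test without a block, 0 of them reached the study's threshold (adjusted p under 0.05 and a fold above 2), as did 0% of all genes. By unadjusted p, 13 of the 78 were under 0.05, as were 17.6% of all genes. DESeq2's Wald test called 0 at that fold, against 2.79% of all genes (1.08% higher, 1.71% lower). At any fold DESeq2 called 1 higher and 3 lower, against 2.5% and 2.88% of all genes (5.38% together). The replicate numbers paired the libraries, and with them as a block edgeR called 3 of the 78 (1 higher, 2 lower), against 5.83% of all genes (2.65% higher, 3.18% lower). At any fold the blocked fit called 27, or 16 higher and 11 lower, against 23.1% of all genes (12.3% higher, 10.8% lower). The fit without a block at the study's threshold was the main test, and the block, which the study does not state, was an alternative. Below, a gene is said to rise or fall when its adjusted p in that alternative, at any fold, is under 0.05. None of these genes passed in edgeR without the block. Over all genes tested the median log2 fold change without the block was -0.02, so positive and negative values were about equally common. The lists were not tested as sets. Genes named beyond the called ones and the 2 with the largest change in a list were chosen after their values were seen.

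The sorting receptors and neurotrophin partners of SorCS2 moved in both directions. Of 8 tested genes, 1 rose and 2 fell, where 12.3% and 10.8% of all genes did. The median log2 fold change without the block was -0.30, against -0.02 over all genes tested. Ntrk3, the receptor for neurotrophin-3, was at 15.1, 19.9 and 33.9 CPM in siNC against 4.99, 10.0 and 16.5 CPM in siPkm2, lower in each pair, though the groups overlap. With the block it fell by 1.19 on the log2 scale (standard error 0.16, adjusted p = 0.0137 by edgeR), and without it the adjusted p was 0.302. Bdnf, a ligand made as a precursor that SorCS2 can bind, was at 11.2, 10.6 and 3.42 CPM in siNC against 27.5, 15.2 and 9.55 CPM in siPkm2, again with overlapping groups but higher in each pair. Its log2 fold change with the block was 1.08 (standard error 0.22, adjusted p = 0.0257 by edgeR, and 0.383 without the block). Sort1, a relative of SorCS2 of the same receptor family, fell by 0.49 with the block (standard error 0.08, adjusted p = 0.0178 by edgeR). Sorl1, a further relative, was at -0.20 (adjusted p = 0.281 in the same fit), while Sorcs1 and Sorcs3 were scarce, at 2.63 CPM or less in every library.

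The machinery that SNX27 works with had values on both sides of 0. Of the 19 retromer, retriever and WASH genes, 4 rose and 2 fell with the block, where 12.3% and 10.8% of all genes did. The median log2 fold change without the block was 0.06. The core subunit Vps35 was at 156, 122 and 121 CPM in siNC against 157, 97.0 and 131 CPM in siPkm2, with a log2 fold change of -0.07 with the block (adjusted p = 0.665 by edgeR). Vps26a was at 0.05 (adjusted p = 0.69, same fit), whereas Vps26b, which encodes the alternative form of that subunit, fell by 0.54 (standard error 0.08, adjusted p = 0.0142 by edgeR). Vps29 rose by 0.55 (standard error 0.09, adjusted p = 0.0175, same fit) and the WASH subunit Washc2 by 0.63 (standard error 0.10, adjusted p = 0.0165, same fit). Of 4 known SNX27 cargoes, the glucose transporter Slc2a1 rose by 0.45 with the block (standard error 0.10, adjusted p = 0.0309 by edgeR), from 186, 336 and 171 CPM to 289, 419 and 225 CPM. Pth1r, the receptor for parathyroid hormone and PTHrP in cartilage, was at 97.2, 17.0 and 62.2 CPM in siNC against 84.5, 21.6 and 41.7 CPM in siPkm2, and its low replicate 2 in both groups goes with the low cartilage markers there.

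Among mitochondrial calcium genes, the setting in which TMEM65 acts, 10 of 13 tested had a positive log2 fold change. With the block 3 rose and 0 fell, where 12.3% and 10.8% of all genes did. The median log2 fold change without the block was 0.13, against -0.02 over all genes tested. Letm1, an inner-membrane protein of ion exchange, rose by 0.51 (standard error 0.08, adjusted p = 0.0183 by edgeR with the block), from 40.6, 30.7 and 34.8 CPM to 54.9, 46.7 and 49.0 CPM, with no overlap of the groups. Mcub, a subunit that restrains the calcium uniporter, was at 0.77 (adjusted p = 0.052, same fit). The sodium-calcium exchanger Slc8b1, which moves calcium out of mitochondria, was at 0.36 (adjusted p = 0.104, same fit), and the uniporter Mcu was at 0.21 (adjusted p = 0.116, same fit).

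Relatives of Bhlhb9 had mostly negative values. Of the 9 GPRASP and ARMCX genes, 8 had a negative log2 fold change. With the block at any fold 4 fell and 0 rose, where 10.8% and 12.3% of all genes did. The median without the block was -0.43, against -0.02 over all genes tested. Gprasp2 was at 4.40, 15.6 and 7.36 CPM in siNC against 1.87, 4.86 and 3.06 CPM in siPkm2. It fell by 1.41 with the block (standard error 0.19, adjusted p = 0.0139 by edgeR), and it is the gene whose exons overlap those of Bhlhb9. Armcx3, a mitochondrial outer-membrane protein, went from 88.4, 84.1 and 92.7 CPM to 53.0, 45.5 and 55.3 CPM, with a wide gap between the groups. It fell by 0.79 with the block (standard error 0.08, adjusted p = 0.011 by edgeR), and its adjusted p was 0.0942 without the block and 0.00185 by DESeq2. Armc10, which is not on the X chromosome, fell by 0.73 (standard error 0.11, adjusted p = 0.0166 by edgeR with the block), and Armcx2 by 0.52 (standard error 0.09, adjusted p = 0.0202, same fit). Armcx4 had the only positive value of the family, 0.08 (adjusted p = 0.559, same fit).

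Oip5os1 is known to direct miR-7 to decay, and a match between them is shown beside the sequence of that microRNA with its seed in capitals. The annotated Oip5os1 transcript has 2 matches to the miR-7 seed, and at the one printed (chr2:119602139-119602161, plus strand) the seed site GTCTTCC is in capitals.
mmu-miR-7a-5p: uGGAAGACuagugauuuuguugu
Oip5os1, miR-7 site: aacaaaatcaccaatGTCTTCCa
Ungapped, 13 of the 23 bases of miR-7a pair there. Pairing across a gap, which could be longer, was not counted, and mature microRNAs were not measured here. Of 6 tested genes known as targets of miR-7, 1 rose and 1 fell with the block, where 12.3% and 10.8% of all genes did. The median log2 fold change was 0.11 without the block and 0.02 with it. Klf4, a transcription factor, rose by 0.96 (standard error 0.16, adjusted p = 0.0189 by edgeR with the block), from 58.8, 124 and 53.3 CPM to 134, 174 and 123 CPM. The kinase Pak1 fell by 0.47 (standard error 0.08, adjusted p = 0.0183, same fit), and Irs1, an adaptor of insulin signalling, was at -0.51 (adjusted p = 0.056, same fit). Egfr and Irs2 were at 0.09 and -0.04 in that fit.

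Genes of the HRD1 complex and of degradation from the endoplasmic reticulum, where FAM8A1 acts, moved in both directions. Of 19 tested, 14 had a positive log2 fold change. With the block 6 rose and 2 fell, where 12.3% and 10.8% of all genes did. The median without the block was 0.25, against -0.02 over all genes tested. Ube2g2, a ubiquitin-conjugating enzyme of this pathway, rose by 0.84 with the block (standard error 0.11, adjusted p = 0.0141 by edgeR), from 82.4, 84.2 and 65.5 CPM to 151, 126 and 137 CPM. Its groups did not overlap, and its adjusted p was 0.106 without the block and 0.00481 by DESeq2. The ligase Syvn1, which is HRD1 itself, rose by 0.34 (standard error 0.07, adjusted p = 0.0309 by edgeR with the block), and its partner Sel1l was at -0.05 (adjusted p = 0.694, same fit). Edem3, an enzyme that trims mannose from misfolded glycoproteins, fell by 0.66 (standard error 0.10, adjusted p = 0.0173, same fit).

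**Figure D4:**
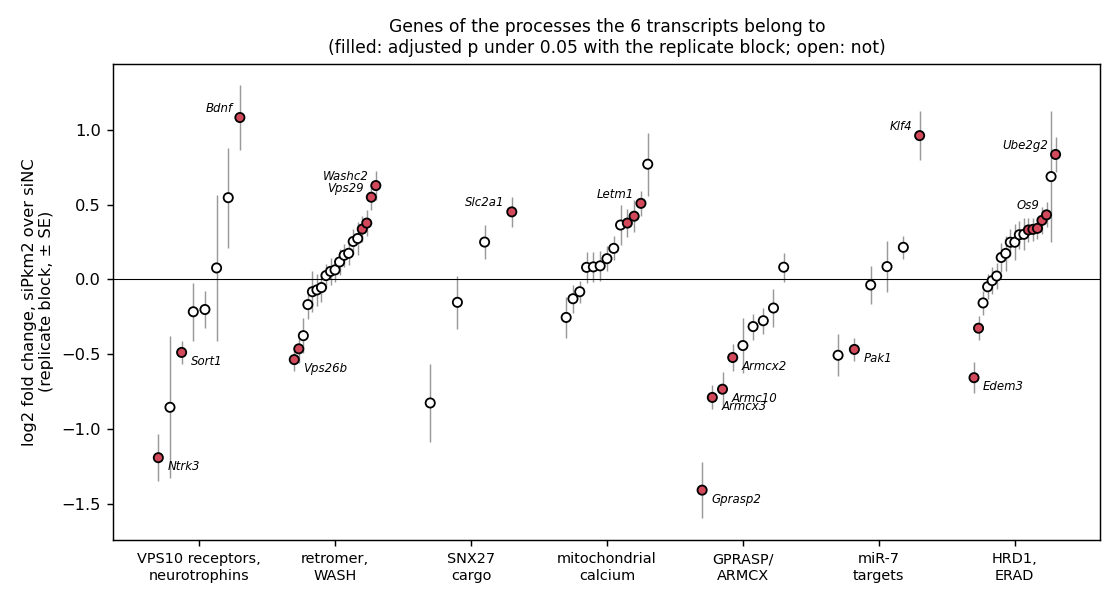
Log2 fold change of siPkm2 over siNC with the replicate block (vertical axis, bars ± SE) for 78 tested genes in 7 lists, sorted within each list, filled where the adjusted p is under 0.05. In the GPRASP and ARMCX list 8 of 9 points lie below 0, and in the list of mitochondrial calcium genes the filled points lie above 0.

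The genes next to the members on the chromosome were also read. Oip5, which lies 2010 bases from Oip5os1 on the opposite strand, was at 6.85, 3.28 and 2.80 CPM in siNC against 2.98, 2.72 and 2.42 CPM in siPkm2, and its log2 fold change was -0.57 with the block (adjusted p = 0.192 by edgeR). Chp1, on the other side of Oip5os1, rose by 0.52 (adjusted p = 0.0176, same fit). Nup153, 1849 bases from Fam8a1, was at 0.20 (adjusted p = 0.185, same fit), and Cap2, on its other side, fell by 1.51 (standard error 0.29, adjusted p = 0.0239, same fit) from 2.68, 2.23 and 4.64 CPM to 1.26, 0.74 and 1.28 CPM. Gm20712, 318 bases beyond the end of Tmem65 on the same strand, was at 0.64, 0.77 and 0.61 CPM in siNC against 0, 0.23 and 0.18 CPM in siPkm2 (adjusted p = 0.0724, same fit). The genes annotated within Sorcs2, Tmem65 and Snx27 had at most 0.04 CPM in any library.

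The genes whose profile over the 6 libraries was most like that of the members were sought by the root mean square difference of centred log2 CPM. Nearest to the mean of the 6 were Gm48113, Atpaf1, Wdsub1, B4galnt4 and Klhl18, at differences between 0.04 and 0.12. Gm48113 had under 1 CPM in siNC and 0 in every siPkm2 library. Its likeness rests on the 0.5 CPM added before the logarithm, since its fitted log2 fold change without the block was -7.09. B4galnt4, at 2.41 CPM or less, was at -2.06 in that fit, and the median of the 6 members was -1.245. Atpaf1, an assembly factor of the mitochondrial ATP synthase, was at 24.3, 28.1 and 24.0 CPM in siNC against 10.4, 11.4 and 10.4 CPM in siPkm2. The gene nearest to Sorcs2 was Txndc12, a thioredoxin-like protein of the endoplasmic reticulum, between 87.3 and 112 CPM in siNC and between 19.7 and 23.7 CPM in siPkm2. Nearest to Tmem65 was Fkbp7, to Snx27 Atpaf1, to Bhlhb9 Prune2, to Oip5os1 Pgap1 and to Fam8a1 Agps. Of the 10 genes named in this way, 9 have an annotated 3′ UTR, and GAGAAAC was in 5 of these (Wdsub1, Klhl18, Txndc12, Pgap1 and Agps). The share was 17.9% over all tested genes and 40.5% in the group with the longest 3′ UTRs, to which Klhl18, Pgap1, Agps and Prune2 belong. It was 3.3% in the shortest group, to which Wdsub1 (440 bases) belongs with B4galnt4 and Fkbp7, which hold no match. In the next group, that of Txndc12 (681 bases), it was 8.3%, and in that of Atpaf1, which holds no match, 23.4%. Nothing is read from this count of few genes. Of the 81 genes of the lists above, 16 of the 78 with a 3′ UTR held it, or 20.5%.

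In the gene ontology terms deposited with the table, Sorcs2 and Snx27 shared early endosome membrane (0.589% of tested genes), intracellular protein transport (1.63%) and postsynaptic density (1.63%). Sorcs2, Tmem65 and Fam8a1 shared integral component of membrane, which 15.8% of tested genes carry. No term was held by more than 3 of the 6.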

How the data were processed

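RNA was sequenced from 3 siNC and 3 siPkm2 libraries of mouse chondrocytes. The authors deposited estimated counts per gene, not normalized and partly fractional, and TPM per library, which were used as given. Their group mean TPM, fold changes, log2 fold changes and p-values were not used. The submitters' processing notes name edgeR and mm9, the table is named for DESeq2, and aligner and annotation are not given in the sources used here. Of the gene IDs, 94.0% occur in GENCODE M21 (GRCm38), which gave positions, transcripts and 3′ UTRs (from after the stop codon, at least 50 bases, the longest per gene).

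Counts were rounded, kept by filterByExpr (15269 genes), scaled by TMM and compared in edgeR 4.0.16 (R 4.3.3) by its quasi-likelihood test, and p-values were adjusted over all of them by Benjamini-Hochberg. Genes were called at a fold over 2 and an adjusted p under 0.05. CPM are counts scaled to the library total and TMM factor. The replicate numbers pair the libraries: deviations from the group means correlated at 0.64, 0.74 and 0.62 for same numbers and at 0.14 or below otherwise. DESeq2 1.42.0 was an alternative. The script was tested on simulated data. The members and lists were chosen with earlier results of these data known. Named were the members, called list genes or the 2 with the largest change per list, neighbours on the chromosome, and the nearest profiles and ranks. Some list genes that this rule names are not reported here. The microRNA sequence is from RefSeq (GRCm38.p6).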

Additional observations from a re-analysis of the deposited data

How the results depend on the processing

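The direction of all 6 members was the same under every alternative: RLE and upper-quartile factors, DESeq2, no low-count filter, a minimum of 10 counts per library, the replicate block, deposited TPM, and each library or both replicate 2 libraries left out (the last chosen after seeing the data). Since the members were picked for their loss in each replicate pair, this direction was largely set by that choice and is no support for them. With upper-quartile factors, which moved the median of all genes by -0.07, Fam8a1 was at -1.01. The 8-base seed site was in 1 coding member in place of 4. Genes called over the whole table numbered 0 in the fit reported, 3 with upper-quartile factors, 9 without a filter, 3 with at least 10 counts, 430 with DESeq2, 890 with the replicate block and 3524 with the block at any fold. Leaving out 1 library gave 0 to 105, the latter without siNC replicate 2. Without replicate 2 of both groups it was 507, and 1639 with the block. Of the list genes, 3 were called with the replicate block and 27 at any fold, 1 without replicate 2 of both groups and 4 with the block there. Pkm passed the threshold with DESeq2 (-2.50), with the replicate block (-2.53), without siNC replicate 2 (-2.34) and without replicate 2 of both groups (-2.65, and -2.63 with the block), and its values with 1 library left out ran from -2.80 to -2.34. In edgeR the calls of Chp1, Cap2, Des and Matn3 also rest on the block. By DESeq2 without a block, Cap2 (adjusted p = 0.0337) and Des (adjusted p = 0.0281) passed as well. Chp1 (0.276) and Matn3 (0.813) did not pass by DESeq2. Depth limits Sorcs2 most, and 3 libraries per group limit every comparison.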
